A study of Mus musculus with 2 samples.

Results

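The genes described here encode proteins that move sodium and calcium across the surface membrane of heart muscle cells. They were chosen by name and are Atp1b1, Fxyd1, Slc8a1, Atp2b1 and Atp2b4, which are 5 of the 22882 gene symbols measured. The control group was Med1fl/fl heart, in which exons of Med1 are flanked by loxP sites. The second group was csMed1-/- heart, in which the same floxed allele was deleted by a Cre recombinase that the alpha-myosin heavy chain promoter drives. This promoter is active in cardiomyocytes from late gestation onward, so the other cells of the whole heart keep an intact coding sequence of Med1, a subunit of the Mediator coactivator complex. Both groups were untreated C57BL6/J mice, 23 days old and of mixed gender, and the label of the control animals names no Cre. The RNA of 5 hearts was pooled for each genotype and made into 1 library, so the study holds 2 libraries and no replicates. No test between the genotypes could be made, no p-value is given, and every difference below is a difference between 2 pooled libraries. Expression is given in FPKM, a count of sequenced fragments per unit of transcript length and of library size, and a ratio is always the csMed1-/- value divided by the control value. A gene was counted as different when that ratio was past 2-fold, provided that neither value was 0 and the higher one reached 1 FPKM.

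The sodium pump uses ATP to carry sodium out of the cell and potassium in. Its catalytic subunit needs a beta subunit to fold and reach the membrane, and in heart it is held back by phospholemman, a small FXYD protein whose brake is lifted by phosphorylation. The sodium gradient it builds drives the sodium/calcium exchanger, the main route by which a cardiomyocyte removes the calcium that entered during a beat. Plasma membrane calcium ATPases remove calcium with ATP directly and are known in heart more for local calcium signalling than for bulk removal.

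Of the 5 genes, 4 met the expression criterion, and 1 of these, Slc8a1, was past 2-fold, in the direction of lower expression in csMed1-/- heart. None was higher by more than 2-fold, and 3 were within 2-fold. Over the 10489 genes that met the criterion, 31.5% were past 2-fold, 18.0% lower and 13.6% higher, so 1 of 4 is close to the background. Fxyd1 was the highest of the 5 in both libraries, followed by Atp1b1, Slc8a1, Atp2b4 and Atp2b1. This order was the same in both genotypes, although the gap between Slc8a1 and Atp2b4 was narrow in csMed1-/- heart. The 4 genes that met the criterion had a median log2 ratio of -0.32, and the median over all 10489 genes was -0.07.

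**Figure D1:**
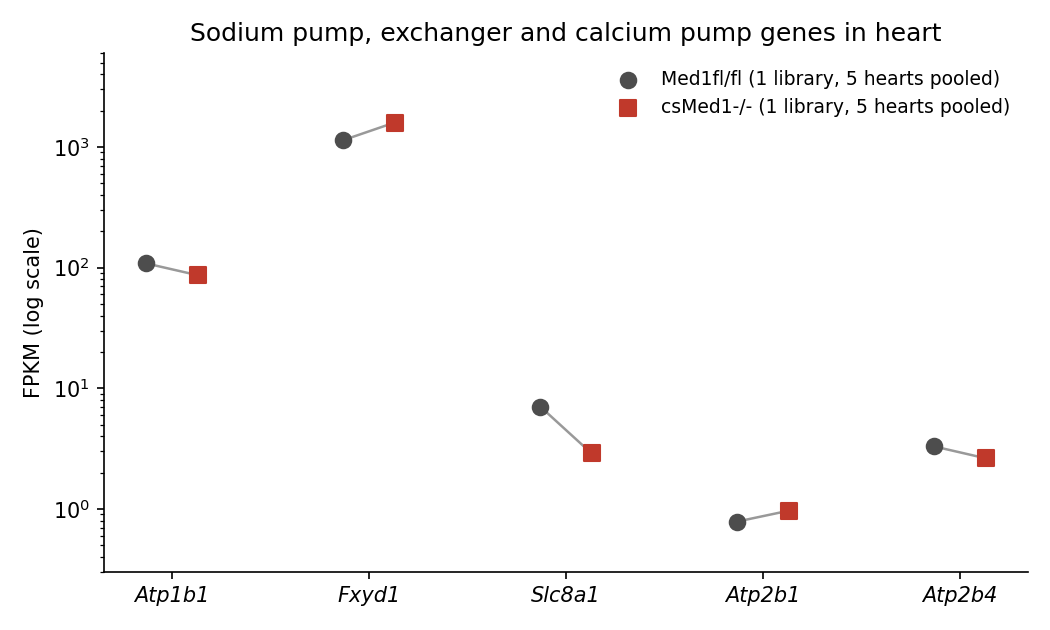
FPKM of the 5 genes (vertical log axis) in the Med1fl/fl library (grey circles) and the csMed1-/- library (red squares), each point being 1 library of 5 pooled hearts and each line joining the 2 values of a gene. The steepest line is that of Slc8a1, from 7.03 to 2.88 FPKM, while Fxyd1 stands highest in both libraries and Atp2b1 lowest.

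Atp1b1 encodes the beta 1 subunit of the sodium pump, the main beta subunit of heart muscle. It had 108.1 FPKM in the control library and 86.4 FPKM in the csMed1-/- library, a ratio of 0.800 and a log2 difference of -0.32. Of the genes that met the criterion, 27.2% had a smaller change. By level, Atp1b1 ranked 898 of all gene symbols in control and 1179 in csMed1-/- heart. The gene lies on the minus strand of chromosome 1 (GRCm38, 164437109 to 164458355), where 575 of its 3081 annotated exon bases overlap exons of Nme7 on the opposite strand. The libraries were directional, but whether strand was used in counting is not given in the sources used here.

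The other abundant beta subunit genes differed in opposite directions. Atp1b2, which encodes the beta 2 subunit, had 31.1 FPKM in the control library and 23.8 FPKM in the csMed1-/- library, a ratio of 0.766. Atp1b3, which encodes the beta 3 subunit, had 18.7 FPKM in the control library and 24.7 FPKM in the csMed1-/- library, a ratio of 1.32. Neither was past 2-fold. Atp1b4 was listed at 0 in control and at 0.0177 FPKM in the csMed1-/- library. Summed over the 4 genes, beta subunit expression was 157.8 FPKM in the control library and 134.9 FPKM in the csMed1-/- library. The share of Atp1b1 in this sum was 68.5% in control and 64.1% in csMed1-/- heart, whereas that of Atp1b3 was 11.8% in control and 18.3% in csMed1-/- heart. Atp1b1 thus stood 5.80 times above Atp1b3 in control and 3.51 times above it in csMed1-/- heart.

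The promoter of Atp1b1 is shown because it differs in base composition from that of Slc8a1, given further on. It covers the 250 bases before the RefSeq start site on chr1:164458356-164458605 (GRCm38.p6, minus strand), read in the direction of transcription, with capitals on the GC boxes and the CCAAT box.
Atp1b1: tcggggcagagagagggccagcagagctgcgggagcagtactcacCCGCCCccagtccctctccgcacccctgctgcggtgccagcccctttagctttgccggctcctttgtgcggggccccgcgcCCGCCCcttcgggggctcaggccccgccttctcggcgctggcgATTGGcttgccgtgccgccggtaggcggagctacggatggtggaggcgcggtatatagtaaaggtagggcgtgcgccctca
It holds 2 matches to the GC box GGGCGG, whose 5-prime ends lie 205 and 124 bases before the start, and 1 match to CCAAT, 81 bases before it, all on the opposite strand. Its GC content was 70.4%, against a median of 52.4% over all 32851 promoter windows. A GC box was found in 32.7% of those windows and a CCAAT box in 33.8%.

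Fxyd1 encodes phospholemman, the FXYD protein that restrains the sodium pump in heart and that protein kinases A and C phosphorylate. It had 1138 FPKM in the control library and 1591 FPKM in the csMed1-/- library, a ratio of 1.40 and a log2 difference of 0.48. It was among the most abundant transcripts of both libraries, at rank 122 in control and rank 71 in csMed1-/- heart. Its change was within 2-fold, and 39.6% of the genes that met the criterion had a smaller one. Fxyd1 differed in the opposite direction from Atp1b1, so Fxyd1 stood 10.5 times above Atp1b1 in control and 18.4 times above it in csMed1-/- heart. The gene lies on the minus strand of chromosome 7 (31051678 to 31057199), and its longest coding transcript has 620 bases. Its promoter window on RefSeq had a GC content of 57.2%, lay in an intron of the longer GENCODE transcripts and held none of the motifs searched.

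Fxyd1 made up 95.0% of the summed FXYD expression in control and 90.0% in csMed1-/- heart, where the sum was 1198 and 1767 FPKM. The remainder came mostly from Fxyd5 and Fxyd6, both of which were past 2-fold. Fxyd6, which encodes phosphohippolin, had 26.0 FPKM in the control library and 112.5 FPKM in the csMed1-/- library, a 4.32-fold higher value. Fxyd5, which encodes dysadherin, a FXYD protein of epithelial and other cells that also affects cell adhesion, had 28.9 FPKM in the control library and 60.8 FPKM in the csMed1-/- library, a 2.11-fold higher value. Fxyd2, the gamma subunit of the kidney sodium pump, was the FXYD gene lower by more than 2-fold, at 3.13 FPKM in the control library and 0.745 FPKM in the csMed1-/- library. Fxyd3 (1.64 and 1.32 FPKM) was within 2-fold, Fxyd7 stayed under 1 FPKM in both libraries, and Fxyd4 was listed at 0 in both.

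Slc8a1 encodes NCX1, the sodium/calcium exchanger of the cardiomyocyte surface. It had 7.03 FPKM in the control library and 2.88 FPKM in the csMed1-/- library, a ratio of 0.410, or 2.44-fold lower, with a log2 difference of -1.29. Its rank by level was 5728 in control and 7514 in csMed1-/- heart. Of the genes that met the criterion, 78.0% had a smaller change and 12.5% had a lower ratio, so a change of this size was common between these libraries. Slc8a1 lies on the minus strand of chromosome 17 (81373105 to 81738377), and its longest coding transcript has 8 exons and 18464 bases. Exons of an antisense gene, AC122399.1, share 296 of the 18807 exon bases of Slc8a1, and those of Gm11096 share 8.

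The promoter of Slc8a1 is shown because this gene had the largest change of the 5. It covers the 250 bases before the RefSeq start site on chr17:81738388-81738637 (GRCm38.p6, minus strand), with capitals on the GATA sites. Slc8a1 is known to use alternative promoters, among them a cardiac one, so this window need not be the one used in heart.
Slc8a1: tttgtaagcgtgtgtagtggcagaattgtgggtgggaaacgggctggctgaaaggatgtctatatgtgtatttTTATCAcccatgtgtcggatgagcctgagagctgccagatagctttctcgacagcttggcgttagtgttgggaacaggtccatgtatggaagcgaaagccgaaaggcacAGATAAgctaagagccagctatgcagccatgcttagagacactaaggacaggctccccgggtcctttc
It holds 2 matches to a GATA site (AGATAA or TGATAA), with 5-prime ends 177 and 68 bases before the start, and 1 match to the E-box CANNTG, 169 bases before it. A GATA site was found in 16.6% of all promoter windows and an E-box in 66.2%. The GC content was 50.4%, near the median of all windows and well under that of Atp1b1.

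**Figure D2:**
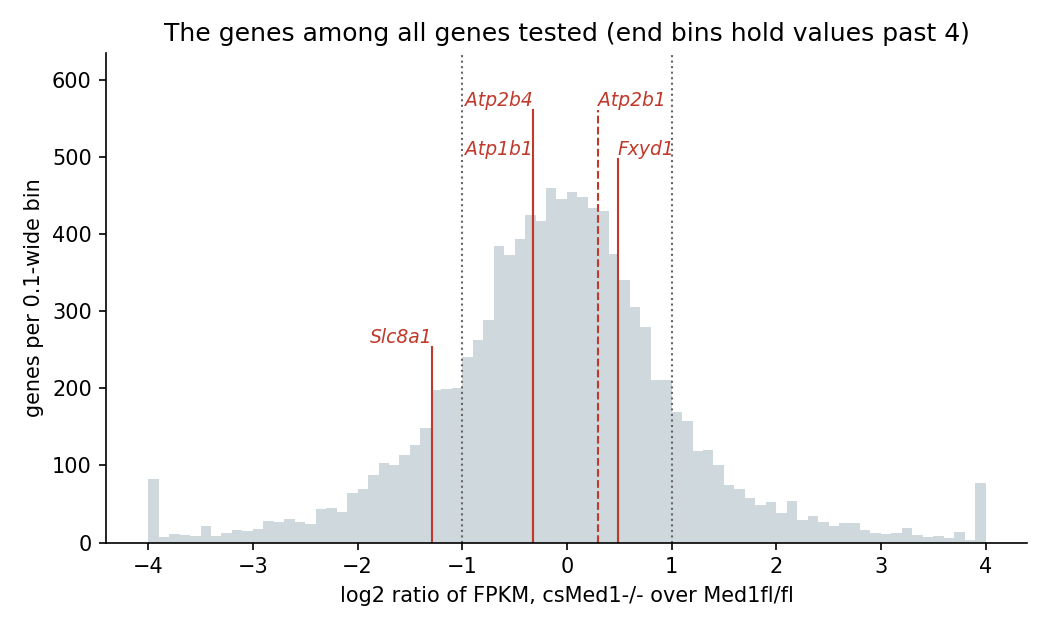
Number of genes (vertical axis) in bins of the log2 ratio of csMed1-/- to Med1fl/fl FPKM (horizontal axis), over the 10489 genes that met the criterion, with the 5 genes as red lines, Atp2b1 dashed because it did not meet it, and 2-fold as dotted lines. Slc8a1 lies outside 2-fold on the lower side at -1.29, in a part of the distribution that holds many genes, and the other 4 lie between -0.32 and 0.48.

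The family of Slc8a1, taken as Slc8a1, Slc8a2 and Slc8a3, had the largest shift in make-up among those of the 5 genes. Slc8a2, which encodes NCX2, an exchanger best known from brain, had 0.465 FPKM in the control library and 2.18 FPKM in the csMed1-/- library, a ratio of 4.69 and a log2 difference of 2.23. Slc8a1 was 15.1 times as high as Slc8a2 in control and 1.32 times as high in csMed1-/- heart. Slc8a3, which encodes NCX3, was close to 0 in both libraries (0.0287 and 0.0237 FPKM). Slc8a1 therefore made up 93.4% of the summed expression of these Slc8a genes in control and 56.6% in csMed1-/- heart. The sum itself was 7.52 FPKM in the control library and 5.09 FPKM in the csMed1-/- library, a ratio of 0.676. Since the values are low, the shares depend on how they are treated, and with 1 FPKM added to each gene the share of Slc8a1 was 76.3% in control and 48.0% in csMed1-/- heart.

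Among the genes with Slc24a symbols, most of which encode potassium-dependent sodium/calcium exchangers, Slc24a6 was the higher of the 2 that met the criterion. It encodes NCLX, the mitochondrial sodium/calcium exchanger now named Slc8b1, and was grouped here by its older symbol. The Slc8a sum above therefore leaves it out. With it the share of Slc8a1 would be lower, and Slc8a1 would not hold most of the sum in either library. The sums of the 2 libraries would also differ by a smaller factor. Slc24a6 had 7.999 FPKM in the control library and 8.12 FPKM in the csMed1-/- library, a log2 difference of 0.02. In control heart it was thus slightly above Slc8a1, and in csMed1-/- heart it was well above it. Slc24a3 had 1.69 FPKM in the control library and 0.631 FPKM in the csMed1-/- library, a log2 difference of -1.42.

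Atp2b4 encodes PMCA4, a plasma membrane calcium ATPase present in many tissues. It had 3.29 FPKM in the control library and 2.63 FPKM in the csMed1-/- library, a ratio of 0.799 and a log2 difference of -0.32, almost the same ratio as that of Atp1b1. Of the genes that met the criterion, 27.4% had a smaller change. Slc8a1 was 2.14 times as high as Atp2b4 in control and 1.10 times as high in csMed1-/- heart. Atp2b4 lies on the minus strand of chromosome 1 (133699457 to 133801041). Its promoter window had a GC content of 45.6%, the lowest of the 5 genes, and held 1 match each to the MCAT element CATTCC, the GATA site and the E-box. This window precedes a start site at 133753747, inside the gene and far from its 5-prime end at 133801041. It need not be the promoter used in heart.

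Atp2b1 encodes PMCA1, the most widely expressed calcium ATPase of the plasma membrane. It had 0.785 FPKM in the control library and 0.964 FPKM in the csMed1-/- library, a ratio of 1.23 and a log2 difference of 0.30. Both values were under 1 FPKM, so the gene did not meet the criterion and was not counted. Atp2b4 was 4.19 times as high as Atp2b1 in control and 2.72 times as high in csMed1-/- heart. Atp2b1 lies on the plus strand of chromosome 10 (98914406 to 99026143). RefSeq gives it 2 start sites, whose windows held 4 and 3 GC boxes at a GC content of 78.4% and 80.8%. In the first window 236 of the 250 bases lie in annotated exons. Its GC box matches at 28 to 23, 24 to 19 and 20 to 15 bases before the start overlap in a single run. None of the 6 windows of the 5 genes held the nuclear receptor half-site AGGTCA, which 14.0% of all windows hold, and none held a DR-1, 2 such half-sites spaced by 1 base, which 0.0335% hold. This says only that these letters are not in these windows.

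Both calcium ATPase genes together made up nearly all of their family in both libraries. Atp2b4 held 77.7% of the summed expression in control and 72.8% in csMed1-/- heart, and Atp2b1 held 18.5% and 26.8%. Atp2b2 was at 0.142 FPKM in the control library and 0.00963 FPKM in the csMed1-/- library, and Atp2b3 was at 0.0175 and 0.00510 FPKM. The family sum was 4.23 FPKM in the control library and 3.60 FPKM in the csMed1-/- library, a ratio of 0.852, so calcium ATPase and beta subunit expression had similar ratios.

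**Figure D3:**
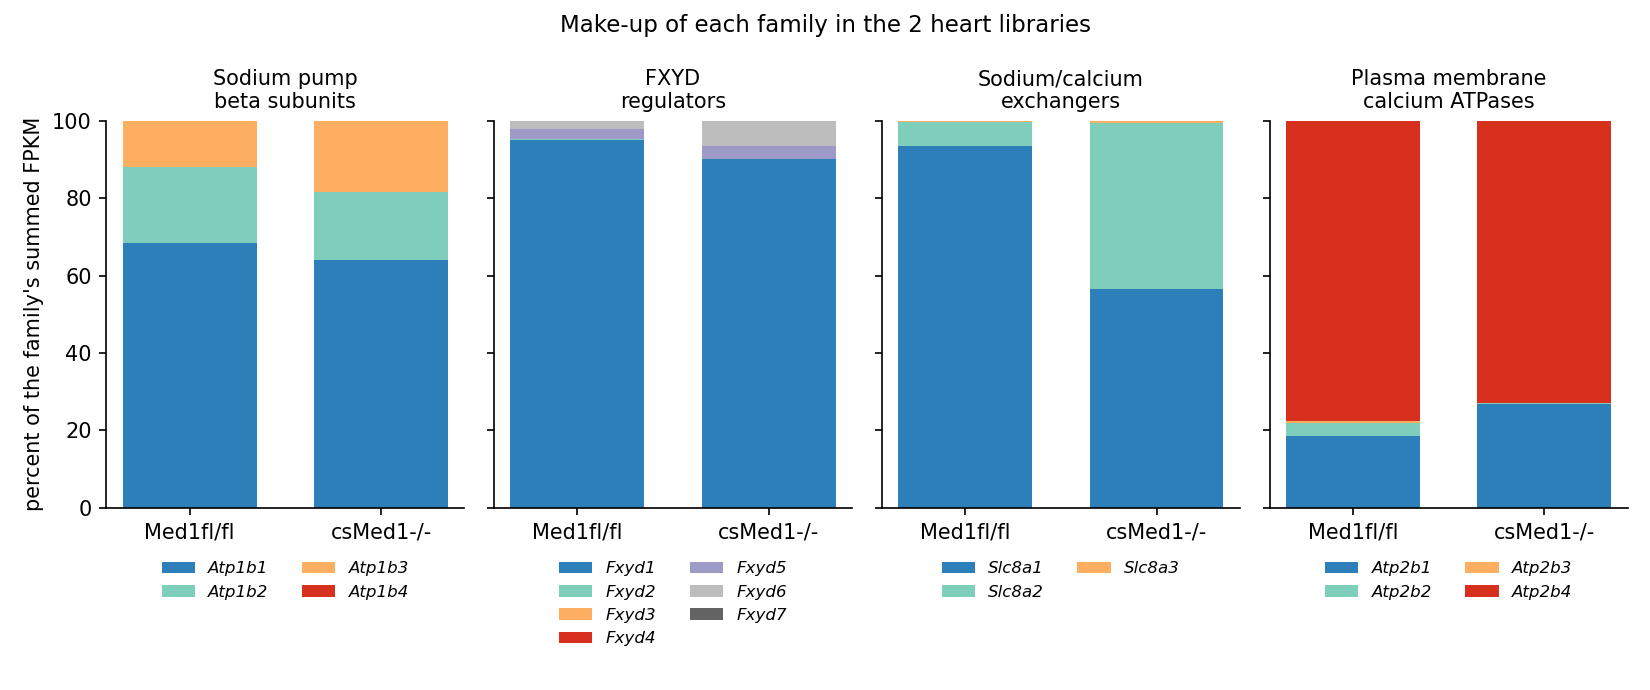
Percent of each family's summed FPKM (vertical axis) that each gene holds in the Med1fl/fl and the csMed1-/- library, for the sodium pump beta subunits, the FXYD regulators, the sodium/calcium exchangers and the plasma membrane calcium ATPases. The share of Slc8a1 is 93.4% in control and 56.6% in csMed1-/- heart, with Slc8a2 making up most of the rest, while Fxyd1, Atp1b1 and Atp2b4 hold most of their families in both. Slc24a6, now named Slc8b1, is not in the exchanger panel.

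The 5 genes belong to a wider list of sodium, calcium, proton, bicarbonate and chloride transporters. Of its 57 genes 27 met the criterion, of which 6 were lower and 7 higher by more than 2-fold, beside 18.0% lower and 13.6% higher over all genes, and 14 were within 2-fold. Their median log2 ratio was -0.16, beside -0.07 over all genes. The sign of this median was not stable, since it was 0.21 among genes that reached 10 FPKM in either library, and 0.02 over the 24 genes of the families named in the text, of which 4 were lower and 7 higher. Without the 5 genes described here, 23 met the criterion, 5 were lower and 7 higher, and the median was 0.02. Among the named genes past 2-fold, Slc8a2, Slc9a7 and Slc4a1 reached 1 FPKM only in csMed1-/- heart, where they were higher. Fxyd2 and Slc24a3 reached it only in control, where they were higher. Such genes were counted through the library in which they were high. With 1 FPKM required in both libraries, 26.0% of all genes were past 2-fold. The members that carry protons, bicarbonate and chloride follow.

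The sodium/hydrogen exchanger past 2-fold was Slc9a7, an exchanger of the Golgi network, with 0.723 FPKM in the control library and 1.82 FPKM in the csMed1-/- library. Slc9a8 had 15.7 FPKM in the control library and 15.8 FPKM in the csMed1-/- library.

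The chloride/bicarbonate exchangers had opposite differences. Slc4a3 encodes AE3, the exchanger typical of heart and brain, and had 84.9 FPKM in the control library and 22.5 FPKM in the csMed1-/- library, a log2 difference of -1.92. Slc4a2, which encodes the widely expressed AE2, had 18.4 FPKM in the control library and 38.5 FPKM in the csMed1-/- library, a log2 difference of 1.07. Slc4a1, which encodes band 3 of red blood cells, had 0.642 FPKM in the control library and 3.17 FPKM in the csMed1-/- library. In control heart Slc4a3 was thus above Slc4a2, and in csMed1-/- heart it was below it. Of the potassium/chloride cotransporters, Slc12a7 (KCC4) had 88.2 FPKM in the control library and 57.1 FPKM in the csMed1-/- library, and Slc12a4 (KCC1) had 41.2 FPKM in the control library and 91.6 FPKM in the csMed1-/- library, of which only Slc12a4 was past 2-fold.

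Of 15 genes for proteins that anchor, bind or regulate the pump, the exchanger and the calcium ATPases, 14 met the criterion. None was lower by more than 2-fold and 1 was higher, beside 18.0% lower and 13.6% higher over all genes. Their median log2 ratio was 0.54, beside -0.07 over all genes. The count of higher genes depended on the library scaling, as given below for Calm3 and Sri. The gene past 2-fold was Prkca, the protein kinase C alpha that phosphorylates phospholemman, with 3.33 FPKM in the control library and 7.39 FPKM in the csMed1-/- library. Prkaca, the catalytic subunit of protein kinase A, had 326 FPKM in the control library and 269 FPKM in the csMed1-/- library. Ppp1ca, a catalytic subunit of protein phosphatase 1, had 482 FPKM in the control library and 684 FPKM in the csMed1-/- library, and its inhibitor Ppp1r1a had 2.97 and 1.97 FPKM. Dmpk, the myotonic dystrophy protein kinase, which can phosphorylate phospholemman, had 402 FPKM in the control library and 600.1 FPKM in the csMed1-/- library.

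Among the anchors, Ank2 encodes ankyrin-B, which holds the pump and NCX1 together in the membrane. It had 19.2 FPKM in the control library and 11.3 FPKM in the csMed1-/- library, a log2 difference of -0.77, the lowest of the 14. Ank3 had 4.39 FPKM in the control library and 4.09 FPKM in the csMed1-/- library. Cav3, which encodes the muscle caveolin, had 212 FPKM in the control library and 369.7 FPKM in the csMed1-/- library. The calcium ATPase partners Nptn, which encodes neuroplastin, and Bsg, which encodes basigin, had 38.3 and 2073 FPKM in the control library and 62.1 and 1737 FPKM in the csMed1-/- library.

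Calm2 and Calm3 encode calmodulin, which activates the plasma membrane calcium ATPases. Calm3 had 127 FPKM in the control library and 252 FPKM in the csMed1-/- library, a ratio of 1.98. Calm2 had 22.9 FPKM in the control library and 28.9 FPKM in the csMed1-/- library. Sri, which encodes sorcin, a calcium-binding protein that acts on NCX1, had 23.7 FPKM in the control library and 46.8 FPKM in the csMed1-/- library. Calm3 and Sri lay just inside 2-fold and passed it when the libraries were scaled to their summed FPKM or the ratios were centred on their median, but not under the other 2 scalings tried. Where they passed it, the count of partner genes higher by more than 2-fold was larger than the one given above. Nos1 was at 0.0212 FPKM in the control library and listed at 0 in csMed1-/- heart.

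**Figure D4:**
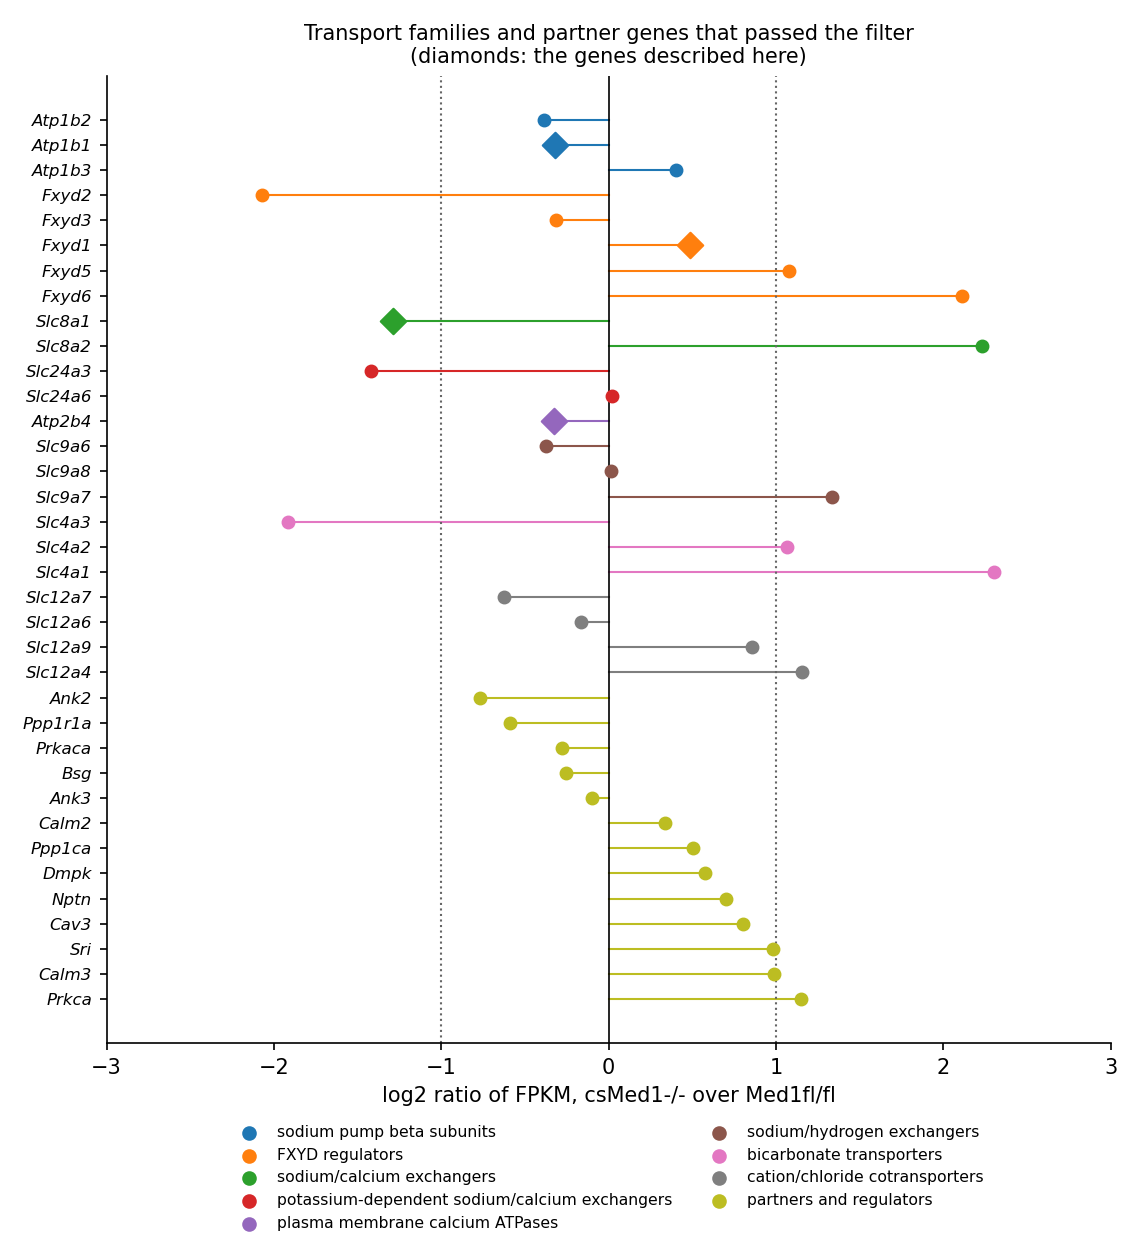
Log2 ratio of csMed1-/- to Med1fl/fl FPKM (horizontal axis) for 23 genes of the transport families and 13 of the partner list that met the criterion (rows, coloured by family), with the genes described here as large diamonds and 2-fold as dotted lines. Slc8a1 lies at -1.29 and its relative Slc8a2 at 2.23, while the partner genes lie between -0.77 and 1.15.

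Some genes elsewhere in the genome had nearly the same pair of values, by the Euclidean distance between log2 FPKM in the 2 libraries. Gm16516 was close to Slc8a1 (6.88 and 2.93 FPKM, distance 0.0409), and the nearest to Atp1b1 were Prkag1 (105.9 and 85.7 FPKM, distance 0.0327) and Ctdsp1. Fxyd1 was nearest to Pkm2 (1112 and 1619 FPKM, distance 0.0417) and Ldha, Atp2b4 to Mterfd2 and Golga4, and Atp2b1 to Otud4 and Ppp4r2. With 2 libraries such a distance describes 2 values only.

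The libraries differed in the markers of the cells that a whole heart holds, and the counts of markers stand beside 18.0% lower, 13.6% higher and a median log2 ratio of -0.07 over all genes. Med1 itself had 3.38 FPKM in the control library and 0.412 FPKM in the csMed1-/- library. Of 11 cardiomyocyte markers measured, 9 met the criterion, 4 were lower and none higher by more than 2-fold, with a median log2 ratio of -0.75, and those 9 summed to 62983 FPKM in the control library and 30037 FPKM in the csMed1-/- library. The other 2, Actc1 and Mb, were listed at 0 in control and at 9189 and 1040 FPKM in the csMed1-/- library, and with them the csMed1-/- sum was 40266 FPKM. A listed value of 0 need not mean absence from control heart, and whether these estimates failed was not tested. Myh6, also on the marker list, was not found under its own symbol. Of 8 fibroblast markers, 1 was lower and 4 were higher, with a median of 1.02 and a sum of 509 FPKM in the control library and 1212 FPKM in the csMed1-/- library. The 4 higher ones were Col1a1, Col1a2, Postn and Fn1. Col3a1, Pdgfra (4.09 and 4.03 FPKM) and Dcn (114 and 96.6 FPKM) were within 2-fold, and Lum was lower (8.04 and 3.72 FPKM). The 8 endothelial markers had a median of -0.58 (3 lower, 1 higher, 615 and 552 FPKM), the 8 smooth muscle and pericyte markers one of 0.28 (2 lower, 3 higher, 798 and 1159 FPKM), and the 7 macrophage markers one of 0.43 with none past 2-fold (324 and 360.1 FPKM). The higher smooth muscle sum rested on Cnn1 (4.32 and 622 FPKM), and the other 7 genes summed to 793 FPKM in the control library and 537 FPKM in the csMed1-/- library, with a median of -0.11. Of 3 atrial markers 2 met the criterion, of which Myl4 was higher past 2-fold (7.44 and 55.2 FPKM) and Myl7 was within it (1.42 and 1.10 FPKM), while Sln was under 1 FPKM in both libraries (0.356 and 0.174 FPKM). The part of these differences in the values of Slc8a1, Fxyd1 and the other transporters was not tested. In pooled whole hearts, fewer cells of a type and less RNA per cell cannot be told apart.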

How the data were processed

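Heart RNA of each genotype was pooled, enriched for polyadenylated RNA and sequenced as 1 library. The authors aligned the reads to mm10 with TopHat2 2.0.8b and measured annotated genes with Cufflinks, with Cuffdiff 2.1.1 for their own comparison, and these deposited FPKM values were used as they stand. The submitters' processing notes also name STAR 2.4.0h, Bowtie2 and DESeq2, with no role given. The library scaling of the FPKM is not given in the sources used here.

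Each table held 23424 rows, and rows sharing a symbol (412 symbols) were summed. Genes with no value of 0 and a higher value of at least 1 FPKM were compared by plain ratio, with 2-fold as threshold. The FPKM summed to 780366 in control and 716365 in csMed1-/- heart. Read counts were not used here, so the depth of each library is unknown, as is the counting error of any value. In both libraries, 2461 rows were above 0 and at 0.15 FPKM or less. If their commonest ratio (115 rows within 1%) reflects 1 read in each library, scaled by depth alone, the csMed1-/- depth was 1.38 times control. That assumption was not tested. A window of 0.2% gave 1.39 (28 rows), and the wider one was chosen after both were seen. A self-test on simulated data was run.

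The 5 genes and all lists were chosen with earlier results of these data known. The transport list was every symbol of the chosen families, and its genes were named at 10 FPKM or more in either library or, past 2-fold, at 1 FPKM or more. Slc24a6 and the lower members of the beta subunit, FXYD, exchanger and calcium ATPase families (Atp1b4, Fxyd3, Fxyd4, Fxyd7, Slc8a3, Atp2b2 and Atp2b3) were added after their values were seen, to complete the families. The partner genes, Med1 and the 2 genes nearest to each of the 5 were also to be named. Some genes that these rules cover enter the counts and medians but are not reported here.

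Gene positions came from GENCODE M21 (GRCm38). Promoter windows came from RefSeq (GRCm38.p6), which matched 5 of 5 genes with 6 of 32851 windows, and motifs were searched on both strands of the 250 bases before each start. With no replicate error, an alternative counted as unchanged when a ratio or median kept its sign and its side of 2-fold, and a count or share stayed within 1.5 times. Computation used Python 3.11.15, numpy 2.4.6, pandas 2.3.3 and matplotlib 3.10.9. The alternatives were pseudocounts, library scalings, filters, thresholds and the highest row of a symbol.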

Additional observations from a re-analysis of the deposited data

How the results depend on the processing

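Of 85 values recomputed under other settings, 81 were unchanged by the criteria above and 4 moved. No ratio past 2-fold changed sign, but the median of the transport list did in 1 setting. All 5 genes kept their direction and their side of 2-fold under pseudocounts of 0.1 and 1 FPKM, 4 library scalings and the highest row of a symbol. Each of the 5 is on 1 row, so the last setting could not change it. A pseudocount only makes a ratio smaller in size and cannot turn its sign, so with it only the side of Slc8a1 was open. Some of the 81 unchanged values were thus fixed in advance. Slc8a1 had a log2 ratio between -1.33 and -1.05, Fxyd1 between 0.45 and 0.61, Atp2b1 between 0.14 and 0.42, and Atp1b1 and Atp2b4 each between -0.36 and -0.20. Scaling to summed FPKM raised every log2 ratio by 0.12 relative to the deposited values, and the other scalings shifted them by less than 0.1. At a threshold of 4-fold, 0 of the genes described here and 9.46% of all genes were past it. At 1.5-fold, 1 of the 4 genes that met the criterion was past it, beside 53.5% of all genes. The median log2 ratio of the transport list turned from -0.16 to 0.21 among genes at 10 FPKM or more in either library, where fewer genes remained. With no filter the count of the 5 genes past 2-fold, in which Atp2b1 then enters, was still 1, an alternative chosen after seeing the data, as were pseudocounts for the family shares, the marker sums without single genes and the scalings of Calm3 and Sri. Since Atp2b1 had a ratio of 1.23, that unfiltered count was also fixed in advance. No paired analysis was possible because each genotype has 1 library. With 1 library per genotype no replicate could be left out, and low values such as those of Atp2b1 and Slc8a2 carry an unknown counting error.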
